A study of Mus musculus with 4 samples.

Results

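The DEAD and DEAH box RNA helicase genes studied here are 49 of the 20807 autosomal protein-coding genes in the GENCODE M21 mouse annotation. They were taken by symbol, as every gene named Ddx or Dhx followed by a digit, which gave 34 Ddx and 15 Dhx genes. Helicases with other symbols, such as Eif4a1, are not among them. The dsRNA sensors Ddx58 and Dhx58 and the family genes of the sex chromosomes were left out by this rule, and no measured value entered the choice. The question addressed was which of these transcripts had peaks in a capture of N6-methyladenosine (m6A) from foetal blood progenitors, and where on the transcript.

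m6A meRIP-seq, in which RNA fragments that carry m6A are captured by an antibody and sequenced, was performed on 2 immunoprecipitated (IP) replicates, with 2 input samples. The cells were foetal liver cells of the C57BL/6 strain background, enriched on magnetic beads for Kit, a receptor of blood stem and progenitor cells. Per the methods of the study they were of the control genotype, Ythdf2 CTL, that is Ythdf2 fl/fl cells without Cre, whose floxed allele also fuses GFP to the m6A reader YTHDF2. Every sample belongs to this 1 condition, so no contrast between genotypes or treatments was possible, and the numbers of embryos behind each replicate and their age are not in the labels. The labels give total RNA for the IP samples and polyA RNA for the input samples. The effect of this difference on the fold values was not tested. The replicate lists held 15635 and 14872 peaks. The values below are those of the caller at each summit, the position of highest signal in a peak. The fold enrichment is the ratio of IP signal to local background, with 1 added to each. The reads behind it were computed from the deposited values, the background being expressed in reads of the control library.

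DEAD box proteins are ATP-dependent enzymes that pry apart short RNA duplexes and remodel RNA-protein complexes. DEAH box proteins move along an RNA strand and often depend on G-patch cofactors. Both families are named for the letters of an ATP-binding motif and serve at nearly every step of RNA life: splicing, ribosome assembly, export, translation and decay. m6A is placed mostly in long internal exons and around stop codons, in a sequence context written DRACH (D stands for any base but C, R for a purine and H for any base but G), of which GGAC is the most used core. YTHDF2 binds m6A and brings the deadenylation machinery to the transcript.

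To show what lay under the summits, the reference sequence around GGAC is printed for the 6 members with the highest fold enrichment that had this motif within 50 nt of the summit in both replicates. The Dhx30 sequence was added after its values were seen, as that of a Dhx member with a site near the summit in a long internal exon. Each line gives 28 nt of the sense strand, 5′ to 3′, from the GENCODE M21 transcripts on GRCm38, and capitals mark the GGAC to which the distances refer. Distances are those of the A of GGAC from the summit, positive towards the 3′ end.
Dhx38, exon 1 of 27, chr8:109565629-109565656, minus strand: gatggtctttttGGACggatagaaggct
Dhx57, exon 5 of 24, chr17:80275345-80275372, minus strand: agaacagagtctGGACcattggattgga
Ddx28, single exon, chr8:106009831-106009858, minus strand: agaagccttccaGGACtagcatcttcag
Ddx28, single exon, chr8:106009811-106009838, minus strand: atcttcagtgggGGACcctttgcctcaa
Ddx59, exon 2 of 8, chr1:136417117-136417144, plus strand: gaccctcaaggaGGACcagattgaaacc
Ddx59, exon 2 of 8, chr1:136417163-136417190, plus strand: atctcagttcaaGGACaagacgttgcca
Dhx32, exon 2 of 12, chr7:133759713-133759740, minus strand: ctgctgaacggaGGACtggactgtggaa
Dhx36, exon 25 of 25, chr3:62470667-62470694, minus strand: tcctgtagactgGGACgacactaagtca
Dhx30, exon 8 of 19, chr9:110087973-110088000, minus strand: agtcatctctggGGACacaggctgtggg

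The Dhx32 site in capitals lay 2 nt from the summit in each replicate, and a further GGAC stands downstream of it on the same line, in lower case. The Dhx30 site lay 12 nt and 7 nt away in replicates 1 and 2. In Ddx28 the sites lay on both sides of the summit, at -9 and 11 nt in replicate 1 and at -13 and 7 nt in replicate 2. In Ddx59 they lay on both sides in replicate 1 (-12 and 34 nt) but on the same side in replicate 2 (-56 and -10 nt). The Dhx38 and Dhx36 sites are followed by G, which leaves them outside the DRACH context, and they lay 46 nt and 30 nt from the replicate 1 summits. A motif near a summit is a description of the sequence; the methylated base itself was not resolved by these peaks.

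Of the 49 helicase genes, 35 (71.4%, exact 95% interval 56.7 to 83.4) had a summit in an exon in both replicates. Of all autosomal protein-coding genes, 31.9% did. A summit in at least 1 replicate was found for 36 helicase genes (73.5%), against 38.1% of all genes. Replicate 1 gave 36 genes and replicate 2 gave 35, and the single gene called in 1 replicate was Ddx39b. The 2 families were alike in this count, with 24 of 34 Ddx genes (70.6%) and 11 of 15 Dhx genes (73.3%) called in both. The difference from the share of all genes rested on peaks below 4-fold. With a fold enrichment of at least 4 required, 8 helicase genes (16.3%) were called in both replicates, against 17.4% of all genes. That comparison is not at like background. Fold falls with control reads, and helicase peaks had a median of 36.6 and 36.4 of them, against 18.2 and 14 over all exonic peaks. No expression measure was used, so the share among all genes includes genes that these cells may not express. The intervals here and below cover counting error only.

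By role, ribosome biogenesis stood at 14 of 15 genes called in both replicates and pre-mRNA splicing at 8 of 14. The mRNA export group had 3 of 4, the translation and mRNA decay group 3 of 6, and the genome maintenance and remaining group 5 of 6. Both mitochondrial members had peaks, and of the 3 germ line members none did. The groups are too small for their shares to be ranked, and Ddx25 stands on both the export and the germ line list.

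**Figure D1:**
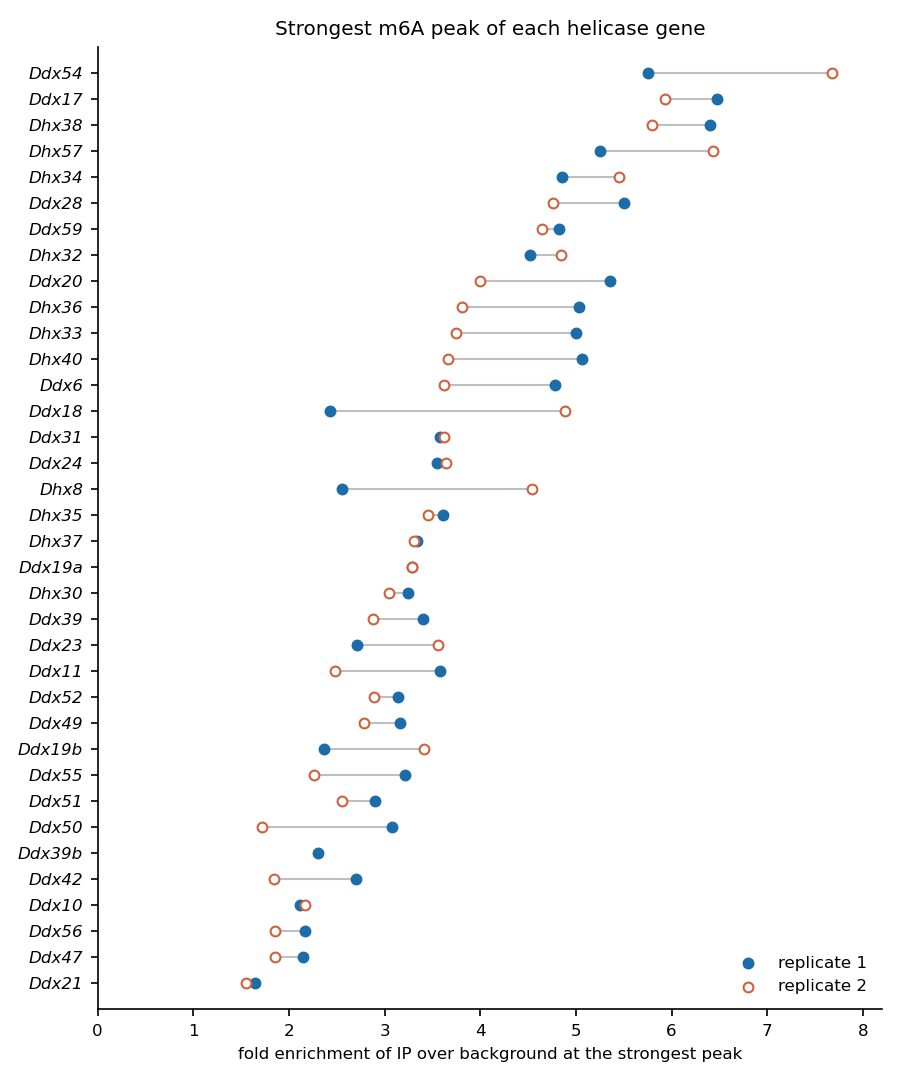
Fold enrichment (IP over background, horizontal axis, linear) of the strongest peak of each of the 36 helicase genes with a peak, with filled points for replicate 1 and open points for replicate 2. Genes are ordered by the mean of the replicates, from Ddx21 (1.65 and 1.55) to Ddx54 (5.75 and 7.67), and Ddx39b has a point in replicate 1 only. Each point is the strongest peak in its own replicate. The points of a gene can therefore mark different sites, as in Ddx18, Ddx50 and Dhx57.

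Among the splicing helicases the strongest peaks belonged to Ddx17 and Dhx38. Ddx17, a cofactor of splicing, transcription and microRNA processing, had its main peak in exon 1 with 79 IP reads over 13 control reads (6.47-fold) in replicate 1 and 80 over 12 (5.93-fold) in replicate 2. The summit stood in the 5′ UTR, at -308 and -296 nt from the start codon. A weak peak lay in its last exon, at 1.95-fold and 1.70-fold. Ddx17 was therefore the leading member by its lower replicate, with nearly the same read numbers in both. Its closest relative Ddx5, which acts in the same processes, had no exonic summit in either replicate. It held 1 intronic summit, at 2.90-fold in replicate 1 only, in sequence that the comprehensive GENCODE set, but not the basic set, annotates as exon.

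Dhx38, the ATPase that remodels the spliceosome before exon joining, carried 3 peaks in each replicate. The peak in exon 1 (5′ UTR, its site printed above) reached 6.40-fold and 5.80-fold but rested on 29 and 26 IP reads. The peak in exon 2, just past the start codon, gave 5.02-fold and 3.71-fold on 118 and 112 IP reads. The peak at the stop codon gave 3.83-fold and 4.20-fold on 120 and 105 IP reads. All 3 Dhx38 summits recurred within 8 nt, and the order of the 2 weaker peaks was turned between the replicates.

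Ddx20, a subunit of the SMN complex that assembles spliceosomal RNPs, had 1 broad peak at the stop codon, at 5.36-fold (155 IP reads) and 3.998-fold (146). Dhx40, found in spliceosomes, had a stop-codon peak at 5.07-fold and 3.67-fold with the same summit base in both replicates. Dhx35 had a 3′ UTR peak at 3.61-fold and 3.45-fold. Ddx23, the helicase that lets U6 replace U1 at the 5′ splice site, gave 2.71-fold and 3.56-fold in its 3′ UTR. Dhx8, which releases the spliced mRNA, had a coding peak in exon 6 at 1.90-fold and 2.44-fold, and a peak in the last exon at 2.55-fold and 4.54-fold. Its last-exon summits lay 267 nt apart, the widest gap among the helicase pairs, so the change in fold there is between different positions of 1 enriched stretch. Ddx42, a partner of the U2 snRNP, had stop-codon summits at 2.24-fold and 1.84-fold, with a further 3′ UTR summit (2.70-fold) in replicate 1 that the single wider peak of replicate 2 covered.

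Ddx39b, which serves both spliceosome assembly and export, was called in replicate 1 only, at 2.30-fold in exon 1, -74 nt from the start codon. That call rested on 168 IP reads over a background of 83 control reads, the highest background of replicate 1 after the Ddx21 and Ddx47 peaks. Replicate 2 had no exonic summit by the basic annotation. The splicing members without any exonic summit were Ddx5, Ddx41, Ddx46, Dhx15 and Dhx16. Ddx41 is known for mutations in myeloid malignancy, Ddx46 and Dhx16 act before the first step of splicing, and Dhx15 takes spent spliceosomes apart with G-patch partners. None of Ddx41, Ddx46, Dhx15 and Dhx16 had an intronic summit either.

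Peaks were nearly general among the ribosome biogenesis helicases, but mostly of low fold. Ddx54 was the exception at the top, with a 5′ UTR peak in exon 1 at 5.75-fold (50 IP reads over 9 control reads) and 7.67-fold (57 over 6.20), the highest helicase value of replicate 2. It had a further stop-codon peak at 3.45-fold and 3.13-fold on 153 and 147 IP reads, whose summit also lies in an exon of the antisense gene Gm43579. The lists carry no strand, so that summit cannot be given to either gene. The high fold of Ddx54 was thus carried by few control reads, and its better-covered peak was near the family median.

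Ddx24, a nucleolar helicase, had 4 peaks in each replicate, the most of the family, and they were spread over the coding sequence. The strongest, in exon 3 (522 nt), was steady at 3.55-fold and 3.64-fold on 170 and 171 IP reads. Its exon 2 (726 nt) held summits of 2.50-fold in replicate 1 and of 2.29-fold and 1.87-fold in replicate 2, and its exon 5 (516 nt) gave 1.999-fold and 1.76-fold. A stop-codon summit at 2.06-fold appeared in replicate 1 only. Exons 2, 3 and 5 are internal exons longer than 400 nt, so 3 such exons of 1 transcript carried peaks.

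Ddx18 had 2 peaks in replicate 1 and 3 in replicate 2. Its exon 2 and stop-codon peaks recurred at 2.25-fold and 2.14-fold, and at 2.43-fold and 2.07-fold. The strongest value, 4.88-fold in exon 1 on 40 IP reads, came from replicate 2 alone. The sequences under the recurring summits match the processed pseudogene Gm16433 at 98.0% and 100% identity, so their reads could belong to either locus.

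Ddx21, a nucleolar helicase of rRNA transcription and processing, was the weakest member with peaks. Its exon 2 peak gave 1.65-fold (195 IP reads over 135 control reads) and 1.55-fold (203 over 124). Its stop-codon peak gave 1.58-fold (192 over 139) and 1.46-fold (185 over 120), under a sequence that is 98.0% identical to the pseudogene Gm37197. These were the highest read numbers of any helicase peak, both in the IP and in the background. Low fold in Ddx21 therefore went with abundant reads, not with few. Its paralogue Ddx50 stood close by, with an exon 2 peak at 1.71-fold and 1.72-fold, a −log10 q of 2.59 in each replicate, and 99.0% identity to the pseudogene Gm8228. By role Ddx50 was counted in the genome maintenance and remaining group. A start-codon peak of Ddx50 in exon 1 (3.08-fold on 29 IP reads) appeared in replicate 1 alone. Ddx50 was the member lost when a −log10 q of at least 3 was required.

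The other ribosome biogenesis members had 1 or 2 peaks each. Dhx33 carried a pair of 3′ UTR peaks, at 4.13-fold and 3.75-fold near the stop codon and at 5.003-fold and 3.45-fold in the distal part, 2715 and 2735 nt past the stop codon. Dhx37, of small-subunit assembly, gave 3.34-fold and 3.31-fold, and Ddx31 gave 3.57-fold and 3.38-fold in the 3′ UTR. Ddx31 also had a 5′ UTR summit in replicate 2 alone, at 3.63-fold on 18 IP reads, the fewest behind any helicase peak. Ddx52 had 2 summits in the last exon, of 3.14-fold and 2.33-fold and of 2.59-fold and 2.89-fold. The strongest peaks of Ddx49 (3.16-fold and 2.79-fold), Ddx55 (3.21-fold and 2.26-fold) and Ddx51 (2.90-fold and 2.56-fold) were lower in replicate 2. The summits of Ddx49 at the stop codon lie in an exon of Homer3 on the opposite strand as well, and without summits in several genes Ddx49 kept only its replicate 1 peak in exon 3. Ddx10 (2.11-fold and 2.17-fold), Ddx47 (2.15-fold and 1.85-fold) and Ddx56 (2.17-fold and 1.85-fold) were close to Ddx21 at the low end, and Ddx10 had a further stop-codon peak (1.69-fold) in replicate 1 alone. Ddx27, of large-subunit assembly, was the ribosome biogenesis member without a summit.

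Of the export helicases, Ddx19a and Ddx19b release mRNA at the nuclear pore. Ddx19a had a stop-codon peak at 3.29-fold in each replicate with the same summit base. Ddx19b had stop-codon summits at 2.28-fold and 3.41-fold, with a further 3′ UTR summit (2.36-fold) in replicate 1. The 101 nt around the stop-codon summits of these neighbouring genes on chromosome 8 are 100% identical, so their 2 stop-codon calls cannot be told apart. Only the 3′ UTR summit of Ddx19b had no such copy. Ddx39, a paralogue of Ddx39b, had 2 peaks in its 3′ UTR, at 3.07-fold and 2.87-fold and at 3.40-fold and 2.74-fold, 1046 and 2156 nt past the stop codon in replicate 1. Ddx25, a testis helicase, had none.

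Among helicases of translation and decay, Ddx6 is the partner of decapping factors that represses and decays mRNA. It had a peak in exon 2 before the start codon at 4.78-fold (150 IP reads over 35) and 3.62-fold (151 over 39), and a 3′ UTR peak at 4.17-fold (172 over 46.4) and 3.38-fold (166 over 46). Both were lower in replicate 2 at nearly equal IP reads, where the scaling between libraries alone gives a lower fold. Dhx34, of nonsense-mediated decay, had 1 peak in exon 2 (1197 nt), -96 and -105 nt from the start codon, at 4.86-fold (93 IP reads over 21) and 5.45-fold (102 over 17). Dhx36, which unwinds G-quadruplexes, had a peak at 5.03-fold (92 over 20) and 3.81-fold (99 over 24) in its last exon, -146 and -145 nt from the stop codon. Members without peaks were Ddx1, a subunit of the tRNA ligase complex, Dhx9, a nuclear helicase of double-stranded RNA, and Dhx29, which helps ribosomes scan structured leaders.

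Both mitochondrial members had peaks. Ddx28, of mitochondrial ribosome assembly, is encoded by a single exon. Its stop-codon peak gave 5.50-fold (139 IP reads over 28) and 4.76-fold (129 over 25), and a start-codon peak at 4.81-fold on 29 IP reads was separate in replicate 1 and lay inside the single 1795 bp peak of replicate 2. Dhx30, of the mitochondrial RNA granule, had 1 coding peak in exon 8 (837 nt), at 3.25-fold (147 over 51) and 3.05-fold (140 over 43), with summits 5 nt apart.

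In the remaining group, Dhx57 had a coding peak in exon 5 (839 nt) at 5.23-fold (59 IP reads over 12) and 6.43-fold (53 over 7). A stop-codon peak at 5.25-fold appeared in replicate 1 alone and a start-codon peak at 4.20-fold in replicate 2 alone, on 29 and 21 IP reads. Ddx59, linked to orofaciodigital syndrome, had 1 exonic peak, in exon 2 (815 nt), at 4.82-fold (67 over 15) and 4.64-fold (77 over 15). Dhx32 gave 4.52-fold (114 over 28) and 4.85-fold (111 over 21) at the start codon with the same summit base, and a coding peak at 3.83-fold in replicate 1 alone. Ddx11, a DNA helicase of sister chromatid cohesion, gave 3.58-fold and 2.48-fold in its 3′ UTR. Ddx60, an interferon-induced helicase, had no peak. In this group the calls found in 1 replicate alone rested on fewer IP reads than the shared peak of the same gene.

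The germ line members Ddx4, the helicase of germ granules, Ddx25 and Ddx43 had no peak in either replicate. The other markers of germ cells searched (Dazl, Mael, Sycp3 and Tex101) had none, 0 of 5 with Ddx4 included. Of 9 autosomal markers of blood progenitors 7 had peaks in both replicates, Kit and Myb having none, and of 8 hepatocyte markers 2 (25%) did, with 3 in at least 1 replicate. The hepatocyte counts were near the shares of all genes, 31.9% in both replicates and 38.1% in at least 1, and do not set those markers apart. A peak list does not measure expression. A gene without a peak may be unmethylated, may be absent from the cells, or may have too few reads for a call, and in bulk RNA fewer cells that hold a transcript and less of it per cell cannot be told apart.

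The 13 helicase genes without an exonic summit in either replicate were Ddx1, Ddx4, Ddx5, Ddx25, Ddx27, Ddx41, Ddx43, Ddx46, Ddx60, Dhx9, Dhx15, Dhx16 and Dhx29. Their chosen transcripts were of similar length to those of the 35 called genes (median 3559 against 3284 nt, coding sequence 2280 against 2202 nt) but were divided into more exons (21 against 15). Their last exons were shorter (661 against 1105 nt), and GGAC was less dense (3.32 against 4.59 per kb). Of the 13, 2 (15.4%) had an internal exon of at least 400 nt, against 10 of 35 (28.6%). Over all autosomal protein-coding genes the last exon was likewise shorter in genes without a peak, at 948 nt against 1595 nt for those called in both replicates, and GGAC less dense, at 3.86 against 4.29 per kb. Exon number and transcript length ran the other way over all genes, with a median of 6 exons and 2200 nt without a peak against 8 exons and 3341 nt with one. The ranges overlapped widely: last exons ran from 136 to 5413 nt among helicase genes without a peak and from 202 to 4243 nt among those with one. Ddx41 and Dhx16 went against the motif density, at 8.64 and 7.46 GGAC per kb with no peak. Ddx25, Ddx1, Ddx46 and Ddx5 went against the exon length, with last exons of 5413, 2656, 2473 and 1902 nt.

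The helicase genes held 58 exonic peaks in replicate 1 and 52 in replicate 2. The median fold enrichment was 3.23 and 3.34, or 3.29 ± 0.0791 (SD, n = 2), below the medians of 4.11 and 4.30 over the 11646 and 11237 exonic peaks of autosomal protein-coding genes. Helicase peaks held more reads: a median of 114.5 and 118 IP reads, against 71 and 69, over 36.6 and 36.4 control reads, against 18.2 and 14. Fold enrichment falls with the background in both lists. Among peaks with 20 to 40 control reads the helicase medians were 3.83 and 3.62 against 3.65 and 3.30 for all, and with 40 to 80 control reads they were 2.43 and 2.26 against 2.62 and 2.32. Within a class of like background the helicase median thus stood above the general one in the former class and below it in the latter, in both replicates.

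**Figure D2:**
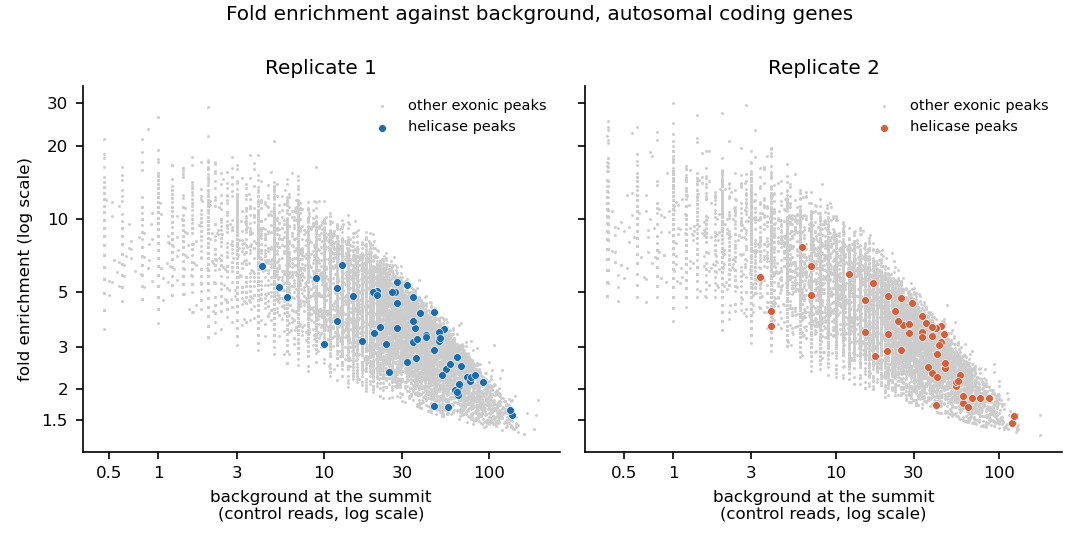
Fold enrichment (vertical axis, log scale) against the background at the summit in control reads (horizontal axis, log scale) for exonic peaks of autosomal protein-coding genes, with helicase peaks coloured and other peaks grey, 1 panel a replicate. Helicase peaks lie towards the higher backgrounds (median 36.6 and 36.4 control reads) and within the cloud of the other peaks at like background.

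Of the helicase peaks 51 of 58 (87.9%, 76.7 to 95.01) in replicate 1 and 49 of 52 (94.2%, 84.1 to 98.8) in replicate 2 overlapped a peak of the other replicate, against 85.2% and 87.5% of all exonic peaks. The 7 without a counterpart in replicate 1 were in Ddx10, Ddx24, Ddx39b, Ddx49, Ddx50, Dhx32 and Dhx57, and the 3 in replicate 2 were in Ddx18, Ddx31 and Dhx57. Of the 44 helicase pairs that matched one to one, the summits lay a median of 10.5 nt apart and 36 lay within 50 nt. All 44 agreed within 2-fold, as did 95.9% of 8982 pairs over all peaks. Fold enrichment was lower in replicate 2 in 31 pairs and higher in 13, with a median log2 ratio of replicate 2 over replicate 1 of -0.12 (SD 0.28), against 0.0084 (SD 0.45) over all pairs. Over all pairs this ratio moved with the background, from 0.12 below 5 control reads to 0.00045 between 20 and 40. It was -0.058 between 40 and 80 and -0.11 above 80. Of helicase peaks, 6.90% in replicate 1 and 5.77% in replicate 2 lay in that last class. The part of background in the helicase shift was not tested. Replicate order carries no meaning in this design, and the peaks of 1 gene are not independent of each other.

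**Figure D3:**
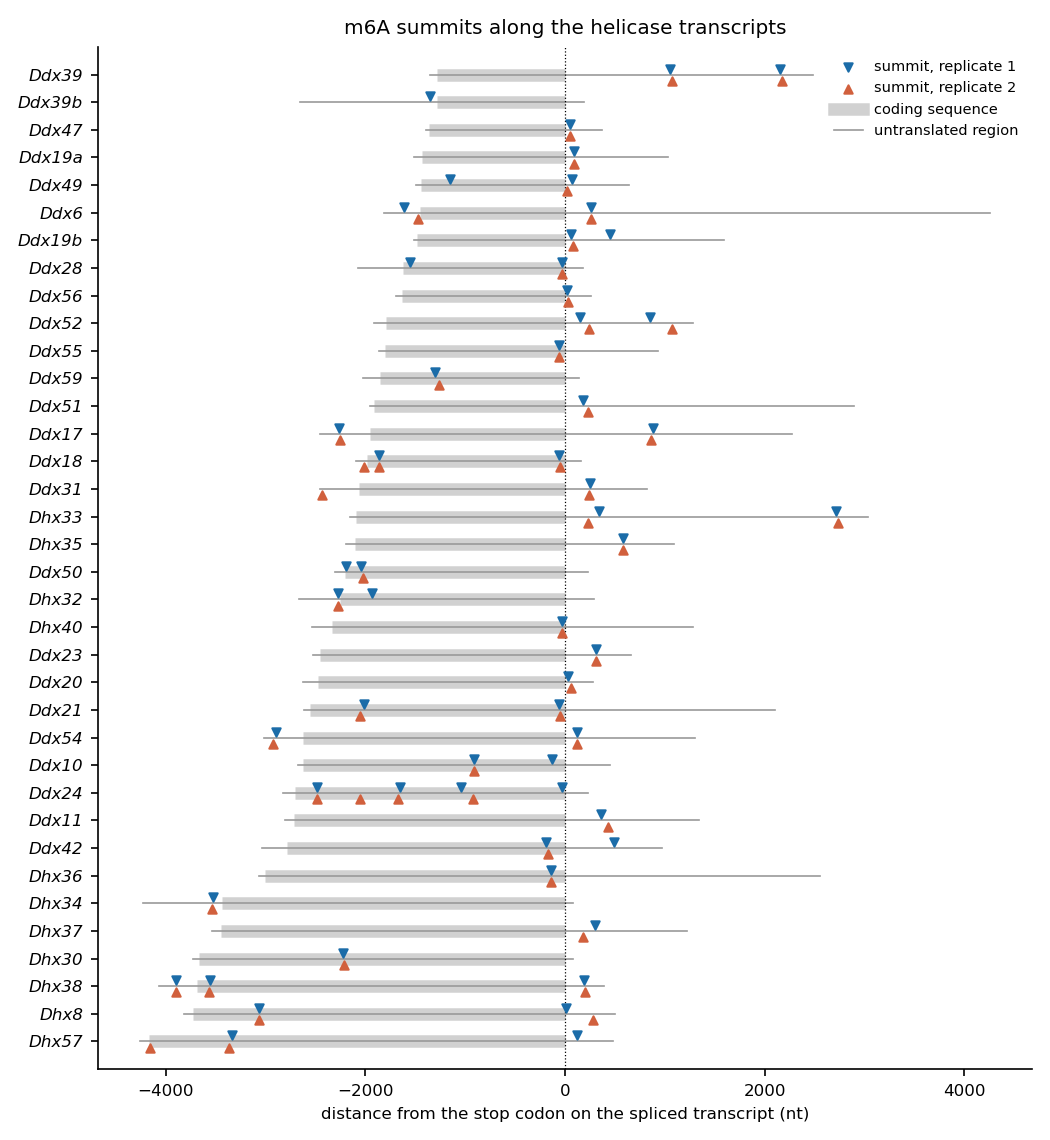
Summits of the 36 helicase genes with a peak, in nt from the stop codon on the chosen spliced transcript (horizontal axis), with blue triangles above the line for replicate 1 and orange triangles below it for replicate 2. Thick bars mark the coding sequence and thin lines the untranslated regions. Triangles of the replicates stack at most positions, near the stop codon in many genes and across the coding sequence in Ddx24.

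A position on the chosen transcript, clear of other genes, could be given to 56 and 50 summits. Within 200 nt of the stop codon lay 19 (33.9%) and 14 (28%), a mean of 30.96% ± 4.19 (SD, n = 2), against 30.4% ± 0.649 over all summits placed in this way. In the coding sequence outside the codon windows lay 11 (19.6%, 10.2 to 32.4) and 10 (20%, 10.03 to 33.7), against 34% and 33.8% over all. The 3′ UTR beyond the stop-codon window held 14 and 14 (25% and 28%), against 17.2% and 17.7%, with intervals of 14.4 to 38.4 and 16.2 to 42.5 that include the general value. The start-codon window held 16.1% and 16%, against 14.5% and 15.1%. The 5′ UTR held 3 and 4 summits (5.36% and 8%), against 3.46% and 3.48%. The coding share was thus lower than the general one in each replicate, with the general value just above the counting interval. The replicates show mostly the same sites, so they are not separate evidence on where helicase sites fall.

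**Figure D4:**
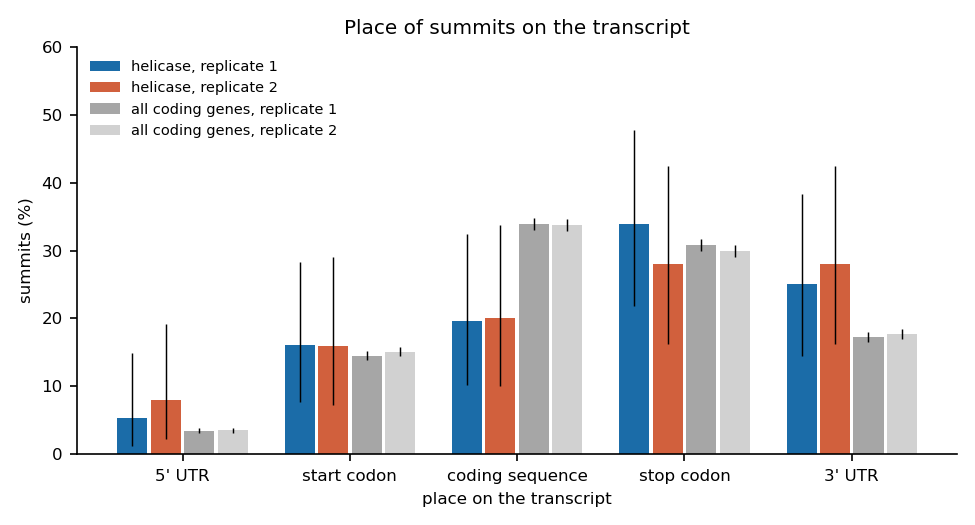
Share of placed summits (vertical axis, percent) in each part of the transcript for helicase peaks (coloured) and for all exonic peaks of autosomal protein-coding genes (grey), 1 bar a replicate, with exact 95% binomial intervals of counting error as lines. The coding-sequence bars of the helicases stand at 19.6% and 20% against 34% and 33.8%, and the stop-codon bars at 33.9% and 28% against 30.9% and 29.95%.

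The lower coding share stood beside longer coding sequences. The called helicase genes had a median coding sequence of 2202 nt, against 1509 nt for all called genes, and a 3′ UTR of 814 nt against 1174 nt. By exon, 55.6% ± 2.22 (SD, n = 2) of helicase summits lay in last exons (58.4% ± 0.350 over all), 23.7% ± 3.23 in internal exons of at least 400 nt (20.8% ± 0.0930), and 8.46% ± 0.657 in shorter internal exons (5.17% ± 0.0716). The short internal exons were exon 2 of Ddx18 and of Ddx50, exon 2 of Dhx38, exon 3 of Ddx49 and of Dhx32, and exon 2 of Dhx57.

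GGAC lay within 50 nt of 31 of 56 helicase summits (55.4%) in replicate 1 and 26 of 50 (52%) in replicate 2, a mean of 53.7% ± 2.37 (SD, n = 2), against 56.2% over all placed summits. A DRACH motif lay within the same distance of 98.2% and 94%, against 93.4% and 93.4%. The shares at random positions of the same transcripts were not computed, so these values do not show that motifs gather at summits. Only the sense strand was searched, and GGAC followed by A, C or T is itself a DRACH motif. Of the sites with high fold, the 5′ UTR summits of Ddx17 lay 61 and 49 nt from the nearest GGAC and those of Ddx54 lay 296 and 328 nt from it. The motif share of helicase summits was therefore within its counting error of the general one.

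The letters for which the families are named were sought anywhere in the translated coding sequences, so a match need not be the ATP-binding motif itself. DEAD was found in 26 of 34 Ddx genes and DEAH in 8 of 15 Dhx genes, against 0.755% and 0.332% of all autosomal protein-coding genes. The Ddx genes with neither were Ddx21, Ddx28, Ddx39, Ddx39b, Ddx50, Ddx52 and Ddx60, while Ddx11 held DEAH. The Dhx genes with neither were Dhx9, Dhx30, Dhx32, Dhx34, Dhx36 and Dhx57, while Dhx29 held DEAD. Members without the letters were found among those with strong peaks (Ddx28, Dhx34, Dhx57) and among those with none (Ddx60, Dhx9).

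Helicases outside the symbol rule were counted for comparison. Of 22 of them 11 (50%) had peaks in both replicates and 13 in at least 1. Those without a peak were the initiation factor Eif4a1, the exon junction factor Eif4a3, the spliceosomal Snrnp200 and Aqr, the exosome helicases Mtrex and Skiv2l, and the germ line genes Mov10l1, Tdrd9 and Tdrd12. Of 20 G-patch genes, the cofactor family of DEAH helicases, 13 (65%) had peaks in both replicates and 14 in at least 1. Those without were Cherp, Gpatch1, Gpatch11, Rbm5, Rbm17 and Sugp1. Each of these shares was above the 31.9% of all genes, and none was tested against it.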

How the data were processed

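m6A meRIP-seq peaks of 2 IP replicates were analysed. Reads and input samples were not analysed here. The submitters' notes and methods give HISAT2 alignment to GRCm38 (version not given in the sources used here) and peak calling per replicate with MACS2 2.1.1.20160309 without a shifting model. Control library and threshold are not stated in these sources. The deposited ratio is the fold enrichment at the summit. Significance was deposited as a −log10 p-value and a −log10 q-value per peak, and the deposited score is derived from q.

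From fold and p, whole IP reads and background were solved for 100% of peaks in each replicate (0.874 and 1.05 IP reads per control read). Library totals are unknown. Both this step and the transcript placement were run on data simulated by the same rules, which checks the code and not the rules. Summits were assigned to exons of GENCODE M21 (basic set), and positions were taken on the transcript with the longest coding sequence. Stop and start codon windows were 200 nt to either side. Peaks were shared at 1 bp of overlap. Shares carry exact Clopper-Pearson 95% intervals. Identical copies were sought with blastn (BLAST 2.17.0, 95% identity over 80% of 101 nt). Python 3.11.15, NumPy 2.4.6, SciPy 1.17.1 and Matplotlib 3.10.9 were used.

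With 1 condition, no test between groups was made. Full values are given for the 10 members with the highest fold in their lower replicate, those called in 1 replicate, those with 3 or more peaks, and Ddx4, Ddx5, Ddx6, Ddx17, Ddx21, Ddx41, Dhx9, Dhx15, Dhx36 and Dhx30 for their roles. For this ranking the strongest peak of a member was taken in each replicate, at whichever site. The members and lists were chosen with earlier results of these data known. Alternatives were other thresholds on fold, q and reads, other annotations, windows and overlaps, and each replicate alone. The methods call the replicates biological without saying how they were obtained, so their spread may be partly technical.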

Additional observations from a re-analysis of the deposited data

Results flagged for a closer look

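Peaks in introns entered none of the comparisons above. Helicase genes held 4 summits in introns only in replicate 1 and 4 in replicate 2, of which 3 in each overlapped a peak of the other replicate. An intronic Ddx39b peak recurred with 119 IP reads over 77.2 control reads (1.75-fold) in replicate 1 and 112 over 59.4 (1.78-fold) in replicate 2, with summits at chr17:35249381 and chr17:35249384. The comprehensive GENCODE set has an exon there, and under it Ddx39b counts as called in both replicates. A Ddx50 peak inside an intron of both annotation sets recurred at 6.86-fold and 5.87-fold, from 29 and 25 IP reads against a background of 3.86 and 3.22. It was stronger in fold than any exonic peak of Ddx50. The Ddx59 peak at the edge of an exon (3.39-fold and 6.48-fold) reached into that exon. The source of these intronic signals was not tested.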

How the results depend on the processing

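The 35 genes called in both replicates stayed between 34 and 36 under a minimum −log10 q of 3, at least 20 IP reads, the comprehensive annotation, chosen transcripts only, any overlap and exclusion of summits in several genes, and were 36 and 35 in each replicate alone. Over all genes the share called in both replicates was between 29.7% and 33.6% under these settings, the single replicates apart. With summits left out whose sequence is also in another gene, an alternative chosen after seeing the data, 30 remained. The share of all genes under this filter was not computed. Ddx18, Ddx19a, Ddx19b and Ddx50 were lost through copies at another place, and Ddx49 through the overlapping exon of Homer3. A fold of at least 4 left 8 genes in both replicates, 15 in at least 1 and 7 in exactly 1, a stop-codon share of 22.2%, a coding share of 13.9%, a 3′ UTR share of 12.5%, a GGAC share of 63.9% and 58.3% of peaks shared. The shares rest on the few helicase peaks that reach this fold. The remaining summits at that fold lay in the start-codon window or the 5′ UTR, with Ddx17, Ddx54, Dhx32, Dhx34 and Dhx38 among them in both replicates. Together these parts held more summits than the stop-codon window in each replicate. Without the fold minimum they held fewer. At that fold 16.3% of helicase genes were called in both replicates, against 17.4% of all genes. General values for the other counts and shares at that fold are not given here. Genes called in exactly 1 replicate were 2 under the q minimum and 2 without summits in several genes. With codon windows of 400 nt the stop-codon, coding and 3′ UTR shares were 43.3%, 16.1% and 14.1%, and with exons of at least 400 nt only the coding and 3′ UTR shares were 21.5% and 31.6%. The coding share was 20.2% under the q minimum. GGAC lay within 100 nt of 82.2% and within 25 nt of 30.1% of summits. Shared peaks were 83.9% with 50% reciprocal overlap and 76.6% with summits within 100 bp. The strongest peak of each gene gave a median fold of 3.46. Single replicates gave stop-codon shares of 28% to 33.9%, coding shares of 19.6% to 20%, 3′ UTR shares of 25% to 28%, GGAC shares of 52% to 55.4% and median folds of 3.23 to 3.34. The cause of these moves was not tested beyond the construction of each setting. No paired analysis was possible because there is 1 group of IP samples and no contrast. Input depth at genes without a peak is unknown, which limits what their lack of a call can mean.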
